A study of Mus musculus with 9 samples.

Results

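A set of 42 genes of the endoplasmic reticulum (ER) and the secretory route were followed across neutrophils sorted from mouse lung. They were found by their gene symbol in the deposited count and FPKM tables, where all 42 of them had a row among 22064 listed genes, and all 42 passed the filter on low counts that left 14108 genes for testing. By role they were 11 ER chaperones and cofactors, 4 protein disulfide isomerases, 3 stress sensors with the transcription factor Xbp1, 7 genes of ER-associated degradation (ERAD), 5 of the SEC61 translocon with SEC62 and SEC63, 4 of the translocon-associated TRAP complex, 3 of the signal peptidase and 4 of the oligosaccharyltransferase.

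The study asked how neutrophils with high and low surface Ly6g differ in breast cancer lung metastasis. RNA-seq libraries came from 3 groups of 3 libraries each, all from the lungs of BALB/c female mice and sorted by flow cytometry with antibodies to CD45, CD11b and Ly6g. The Ly6Ghi and Ly6Glow groups were Ly6Ghigh and Ly6Glow neutrophils of mice at the MACRO stage (macrometastatic, with lung nodules) after an orthotopic fat pad injection of 4T1-LM3, a derivative of the mouse mammary tumor line 4T1 that had passed through rounds of selection for lung metastasis in mice. The NL group was Ly6Ghigh neutrophils from lung tissue for which the labels name no injection. The age of the mice at harvest was not in the labels, nor was it stated whether a library was 1 mouse or a pool, so that p-values measure the spread between these libraries, which may be technical.

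Libraries held 15267177 to 17841807 estimated counts. The sort could be checked against Ly6g mRNA, which stood at 374 ± 10.8 CPM (counts scaled to the TMM library size, mean ± SD, n = 3) in Ly6Ghi, 394 ± 9.32 CPM in Ly6Glow and 119 ± 1.40 CPM in NL, and was not called between Ly6Glow and Ly6Ghi (log2 fold change 0.08 ± 0.033 SE, adjusted p = 0.0577), so that Ly6g mRNA did not follow the sort labels. NL libraries differed from both tumor groups in markers of many cell types. The summed CPM of 10 neutrophil markers, such as S100a9 and S100a8, ran from 18260 to 18520 in NL, against 71020 to 72860 in Ly6Ghi and 76270 to 77980 in Ly6Glow. For 10 lung epithelial or tumor cell markers the sums were 1404 to 1537, 128.6 to 136.1 and 131.7 to 137 CPM in the same order, and for 10 endothelial and fibroblast markers 1358 to 1458, 182.3 to 192.3 and 213.7 to 227 CPM. In such bulk samples, fewer cells of a type and less RNA per cell cannot be told apart.

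The ER folds and modifies proteins that enter the secretory route. A nascent chain is threaded through the SEC61 channel, loses its signal peptide to the signal peptidase, receives an N-glycan from the oligosaccharyltransferase and is folded by the chaperone Hspa5 (BiP), by Hsp90b1 (GRP94), by the lectin chaperones Calr and Canx and by disulfide isomerases, while chains that fail to fold are handed to ERAD for degradation in the cytosol. When unfolded chains accumulate, the sensors Ern1 (IRE1), Eif2ak3 (PERK) and Atf6 start the unfolded protein response (UPR). IRE1 then splices Xbp1 mRNA to encode an active transcription factor, a step that gene-level counts do not show. Neutrophils make most of their granule proteins as precursors in the marrow, when their ER is well developed, and mature neutrophils hold little ER.

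UPR factors bind the ER stress response element (ERSE), which reads CCAAT, 9 bases of any kind and CCACG. It was searched on both strands in the RefSeq promoter windows of GRCm38.p6, each from 250 bases before to 50 bases after a transcript's start site. Of the 42 genes 34 had an entry, with 36 promoters between them. An ERSE stood in 8 of these 36 promoters (22.2%), against 39 of all 32851 promoters (0.119%). Element and genes were both picked from what is known of the UPR and the ER, so this difference is not a finding of these data. The 9 windows are shown because 6 of the 8 genes that carry them were called lower in Ly6Glow than in NL below. In that comparison 6 of the 26 genes with an entry but no ERSE were also called lower, as were 40.8% of all genes tested. Each window has the element in capitals and 10 bases on either side, 5′ to 3′ on the strand of the gene. All lie upstream of the start site, with the elements between bases -212 and -26.

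Hspa5, chr2:34772015-34772053, plus strand: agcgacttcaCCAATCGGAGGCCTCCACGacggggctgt
Hsp90b1, first element, chr10:86705628-86705666, minus strand: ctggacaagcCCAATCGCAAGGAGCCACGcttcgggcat
Hsp90b1, second element, chr10:86705523-86705561, minus strand: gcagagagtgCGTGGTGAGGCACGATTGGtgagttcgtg
Calr, chr8:84847065-84847103, minus strand: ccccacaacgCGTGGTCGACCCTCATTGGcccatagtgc
Canx, chr11:50325790-50325828, minus strand: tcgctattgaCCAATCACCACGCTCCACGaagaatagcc
Dnajc3, chr14:118937817-118937855, plus strand: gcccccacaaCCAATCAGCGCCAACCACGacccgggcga
Creld2, chr15:88819510-88819548, plus strand: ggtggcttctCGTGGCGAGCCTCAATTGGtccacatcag
Pdia6, chr12:17266481-17266519, plus strand: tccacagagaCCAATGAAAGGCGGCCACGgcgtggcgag
Syvn1, chr19:6046522-6046560, plus strand: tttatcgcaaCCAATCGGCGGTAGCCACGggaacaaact

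In Hsp90b1 (second element), Calr and Creld2 the element ran in the other direction, and so reads as CGTGG, 9 bases and ATTGG. The related ERSE-II (ATTGG, 1 base and CCACG) was found in 2 of the 36 promoters (5.56%, Dnajb11 and Herpud1) and in 12 of all promoters (0.0365%). The core of a further UPR element, TGACG directly followed by TGG, was in none of the 36 and in 222 of all promoters (0.676%); it holds CGTGG, the second part of the ERSE on the other strand. The choice of element and genes bears on the ERSE-II shares as well. A match describes these letters only and is no evidence of binding.

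Between the tumor groups, 0 of the 42 genes were called higher and 10 lower in Ly6Glow than in Ly6Ghi. The edgeR quasi-likelihood test was used, with adjusted p of at most 0.05 over all genes tested and a log2 fold change beyond 0.58. With the unadjusted p these counts were 0 and 10 again, and DESeq2 gave 2 and 9. The 10 genes were 23.8% of the 42, close to the 25.2% called among all genes tested (9.29% higher and 15.9% lower). All 10 were among the 19 chaperone, isomerase and oligosaccharyltransferase genes, and none of the 11 sensor and ERAD genes was called in either direction. These 2 sets of roles were put together after the values were seen. Dropping the fold-change limit, 36 of 42 passed the adjusted p (55.8% of all genes), and 39 of 42 had no overlap between the libraries of either group (62.1% of all genes). The median log2 fold change of the 42 genes was -0.34, against -0.04 for all genes tested. The split depended on scaling: with total counts in place of TMM the median of all genes moved to -0.28 and 20 of the 42 were called lower and 0 higher (26.4% and 4.04% of all genes), and with limma on log2(FPKM + 1) 19 and 0 (13.6% and 2.27%).

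**Figure D1:**
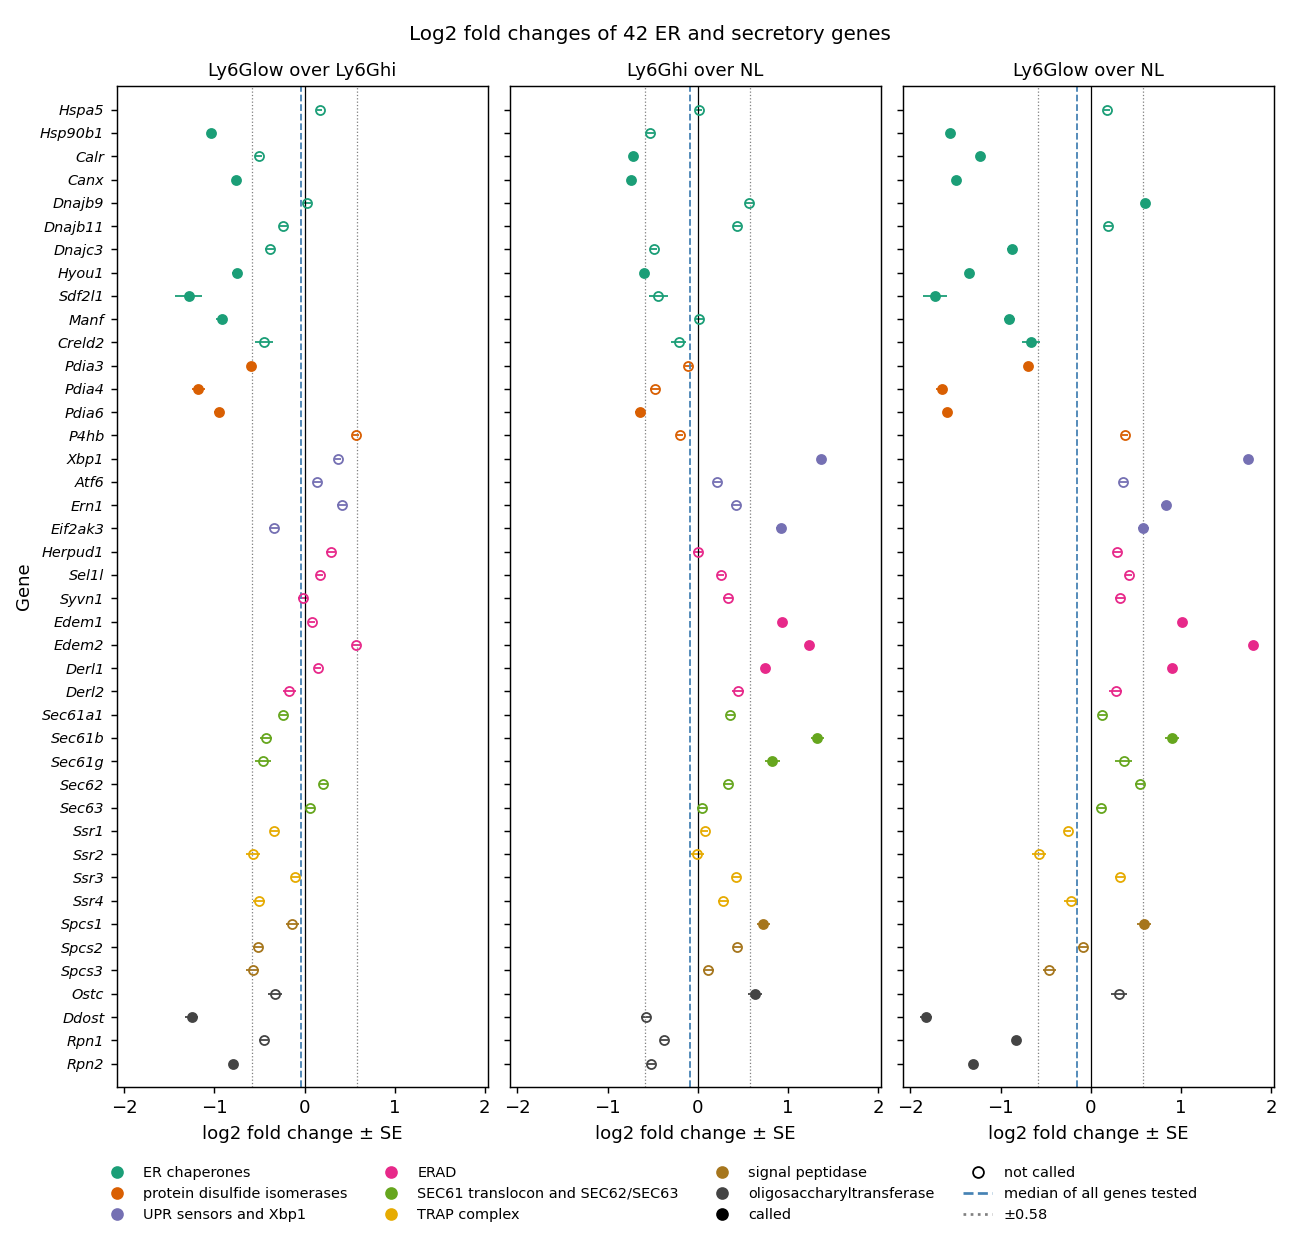
Log2 fold change ± SE (x axis) of the 42 genes (y axis), colored by role, in the 3 comparisons. Filled points were called, open points were not, dotted lines mark ±0.58 and the dashed line is the median of all genes tested. In the left panel 10 filled points lie on the lower side and 0 on the higher side.

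Among the ER chaperones, 5 of 11 were called lower in Ly6Glow than in Ly6Ghi and 0 higher. Hsp90b1, the ER member of the HSP90 family, was at 342, 369 and 345 CPM in NL, 238, 249 and 247 CPM in Ly6Ghi and 115, 124 and 118 CPM in Ly6Glow. The groups did not overlap, and NL was highest and Ly6Glow lowest. Hsp90b1 was 2.05-fold lower in Ly6Glow than in Ly6Ghi (log2 fold change -1.04 ± 0.041 SE, adjusted p = 4.24e-15). Sdf2l1, a small partner of the chaperone complex and by FPKM the lowest of the 42 genes in both tumor groups, was at 12.2, 10.8 and 12.9 CPM in NL, 9.66, 8.32 and 8.54 CPM in Ly6Ghi and 3.66, 4.36 and 2.82 CPM in Ly6Glow. It had the same order of groups, the largest log2 fold change of the 42 genes (log2 fold change -1.29 ± 0.15 SE, adjusted p = 1.25e-07) and the largest SE.

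Canx, the membrane-bound lectin chaperone, was at 196, 221 and 203 CPM in NL, 122, 125 and 125 CPM in Ly6Ghi and 73.0, 71.4 and 76.0 CPM in Ly6Glow. Its order was again NL, Ly6Ghi, Ly6Glow without overlap, and it was 1.69-fold lower in Ly6Glow than in Ly6Ghi (log2 fold change -0.76 ± 0.049 SE, adjusted p = 1.33e-11). Hyou1, which exchanges the nucleotide of Hspa5, was at 91.9, 86.7 and 92.1 CPM in NL, 58.1, 60.9 and 60.0 CPM in Ly6Ghi and 35.3, 36.9 and 34.2 CPM in Ly6Glow, with the same order and log2 fold change -0.75 ± 0.053 SE, adjusted p = 6.24e-11. Manf, a secreted protein that binds Hspa5, was at 44.6, 43.8 and 46.1 CPM in NL, 42.8, 45.4 and 48.0 CPM in Ly6Ghi and 23.6, 24.5 and 23.8 CPM in Ly6Glow. Here NL and Ly6Ghi overlapped and only Ly6Glow stood apart, 1.89-fold below Ly6Ghi (log2 fold change -0.92 ± 0.061 SE, adjusted p = 2.37e-11).

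Hspa5 did not move with these chaperones. It was at 663, 689.9 and 661 CPM in NL, 661, 679 and 694 CPM in Ly6Ghi and 758, 756 and 769.6 CPM in Ly6Glow, so that Ly6Ghi and NL overlapped and Ly6Glow was the highest. The log2 fold change of Ly6Glow over Ly6Ghi was 0.17 ± 0.031 SE (adjusted p = 8.4e-05), below the fold-change limit, and it turned negative with total counts (-0.07), where NL was highest and Ly6Glow lowest. Calr, the soluble lectin chaperone, ran 230 to 246 CPM in Ly6Ghi and 160 to 172 CPM in Ly6Glow and lay inside the limit (log2 fold change -0.51 ± 0.038 SE, adjusted p = 1.51e-10). The cofactors Dnajb9, Dnajb11, Dnajc3 and Creld2 were not called either.

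Of the 4 disulfide isomerases, 3 were called lower in Ly6Glow and 1, P4hb, was not. Pdia4 was at 45.3, 44.6 and 43.2 CPM in NL, 31.0, 32.7 and 31.9 CPM in Ly6Ghi and 14.0, 14.7 and 13.6 CPM in Ly6Glow. Its groups were far apart, with Ly6Glow 2.26-fold below Ly6Ghi (log2 fold change -1.18 ± 0.067 SE, adjusted p = 1.9e-12). Pdia6 was at 106, 107 and 113 CPM in NL, 68.0, 68.6 and 72.1 CPM in Ly6Ghi and 36.3, 33.9 and 38.0 CPM in Ly6Glow, with Ly6Glow 1.93-fold below Ly6Ghi (log2 fold change -0.95 ± 0.054 SE, adjusted p = 1.93e-12). Pdia3, the isomerase that works with Calr and Canx, was at 239.6, 247 and 230.2 CPM in NL, 216, 226 and 225 CPM in Ly6Ghi and 145, 144 and 153 CPM in Ly6Glow. All of these had NL highest and Ly6Glow lowest. Pdia3 lay nearest to the limit (log2 fold change -0.59 ± 0.039 SE, adjusted p = 2.1e-11) and was no longer called with DESeq2 size factors (-0.53), without Ly6Ghi 2 (-0.576) or without Ly6Glow 2 (-0.575). P4hb, the isomerase highest in FPKM, was at 447, 422 and 432 CPM in NL, 379, 390.0 and 368 CPM in Ly6Ghi and 559, 573 and 559 CPM in Ly6Glow, which placed Ly6Glow highest and Ly6Ghi lowest, or NL highest with total counts. Its log2 fold change was 0.57 ± 0.033 SE (adjusted p = 2.42e-12), just inside the limit, and it was called higher in Ly6Glow with DESeq2 size factors and without Ly6Ghi 2 (0.598).

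The oligosaccharyltransferase adds the N-glycan that Calr and Canx read. Ddost, a core subunit, was at 53.1, 48.1 and 53.0 CPM in NL, 36.2, 33.1 and 34.4 CPM in Ly6Ghi and 14.8, 13.8 and 14.9 CPM in Ly6Glow. Ly6Glow lay 2.38-fold below Ly6Ghi (log2 fold change -1.25 ± 0.073 SE, adjusted p = 2.68e-12), the second largest change of the 42 genes. Rpn2, another core subunit, was at 93.5, 87.8 and 91.2 CPM in NL, 62.2, 63.8 and 64.7 CPM in Ly6Ghi and 37.3, 37.1 and 35.8 CPM in Ly6Glow, with log2 fold change -0.79 ± 0.050 SE, adjusted p = 1.15e-11. The subunits Rpn1 (61.2 to 63.8 CPM in Ly6Ghi, 44.7 to 47.0 CPM in Ly6Glow) and Ostc (23.3 to 26.1 CPM and 17.5 to 21.4 CPM) were not called, although all 4 subunits had adjusted p-values of at most 0.05 on the lower side.

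None of the 4 sensor genes and none of the 7 ERAD genes was called between the tumor groups, although 4 of 4 and 5 of 7 passed the adjusted p. Xbp1 was at 103, 106 and 108 CPM in NL, 274, 268 and 280.0 CPM in Ly6Ghi and 351, 356 and 356 CPM in Ly6Glow. The groups did not overlap and their order was the reverse of that of Hsp90b1, with Ly6Glow above Ly6Ghi by a log2 value of 0.37 ± 0.033 SE (adjusted p = 2.93e-09). For Ern1 the log2 fold change was 0.41 ± 0.054 SE (adjusted p = 1.19e-06) and for Atf6 0.14 ± 0.042 SE (adjusted p = 0.00845), which turned to -0.10 with total counts. Eif2ak3 pointed the other way, with -0.34 ± 0.057 SE (adjusted p = 2.56e-05). Edem2, which trims mannose from glycoproteins bound for ERAD, was at 49.5, 45.9 and 48.4 CPM in NL, 110.4, 117 and 110.2 CPM in Ly6Ghi and 169, 173 and 160.0 CPM in Ly6Glow. Its log2 fold change of 0.57 ± 0.043 SE (adjusted p = 1.65e-10) lay just inside the limit, and it was called higher in Ly6Glow with DESeq2 size factors, without Ly6Ghi 2 (0.602) and without Ly6Glow 3 (0.60). The median over the 11 sensor and ERAD genes was 0.15, or -0.09 with total counts, against -0.59 and -0.83 over the 19 chaperone, isomerase and oligosaccharyltransferase genes. Both sets were formed after the values were seen, so that their distance is in part the choice.

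Genes of entry into the ER lay between these sets. None of the 5 genes of SEC61, SEC62 and SEC63, of the 4 TRAP genes and of the 3 signal peptidase genes was called, with role medians of -0.23, -0.42 and -0.52. Within the translocon, Sec61a1, Sec61b and Sec61g were lower and Sec62 higher in Ly6Glow by the adjusted p alone, and only Sec63 was not past it; with total counts the libraries of Sec62 overlapped between the tumor groups. The log2 fold changes nearest to the limit were -0.58 ± 0.069 SE (adjusted p = 2.56e-07) for Spcs3, -0.57 ± 0.081 SE (adjusted p = 3.28e-06) for Ssr2, -0.52 ± 0.053 SE (adjusted p = 2.26e-08) for Spcs2 and -0.51 ± 0.069 SE (adjusted p = 1.74e-06) for Ssr4. Leaving out a library called Spcs3 lower (-0.617 without Ly6Ghi 2, -0.628 without Ly6Glow 3), and Ssr2 as well (-0.619 without Ly6Ghi 3, -0.615 without Ly6Glow 1).

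**Figure D2:**
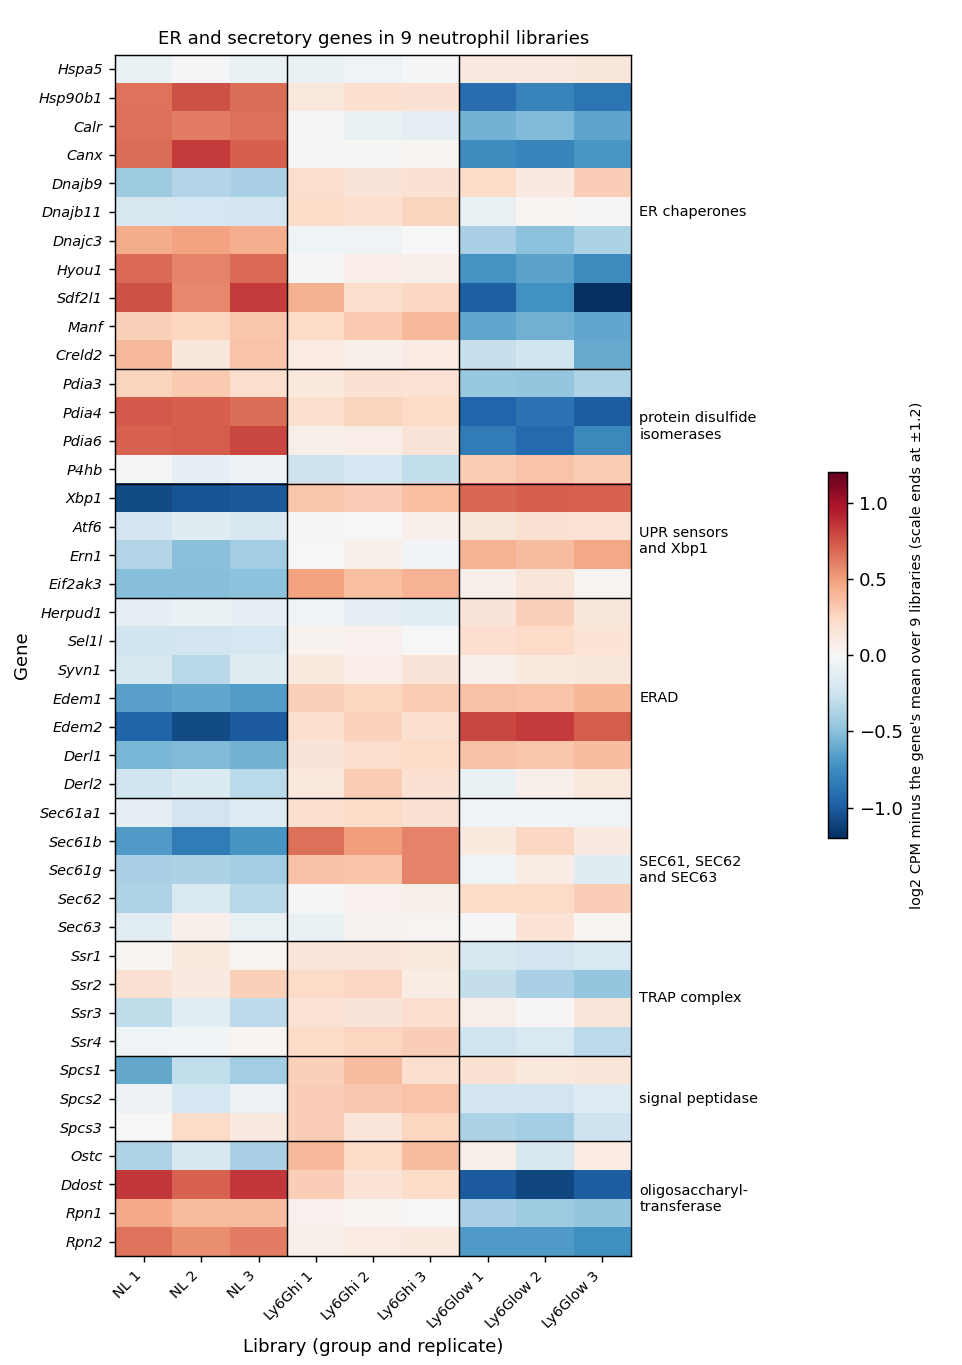
Log2 CPM of the 42 genes (rows, grouped by role) in the 9 libraries (columns), each minus the gene's mean over the libraries; red is above and blue below that mean, and the color scale ends at ±1.2. The chaperone, isomerase and oligosaccharyltransferase rows are mostly red in NL and blue in Ly6Glow, and the Xbp1, Edem1, Edem2 and Derl1 rows run the other way, although with total counts Edem1 and Derl1 are highest in Ly6Ghi.

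Markers of other cells and of maturity also differed between the tumor groups. Of 12 immature neutrophil granule genes, such as Ngp and Ltf, 11 were called lower in Ly6Glow, with sums of 35780 to 36510 CPM in Ly6Ghi and 12890 to 13410 CPM in Ly6Glow. Of 16 alveolar macrophage markers, 11 were called lower, with sums of 1726 to 1772 and 446.1 to 471.4 CPM, of which Chil3, also a granule gene, made up 1274 and 277 CPM on average. The part of these cells or stages in the ER results was not tested. Plasma cells are rich in ER, and 7 of 8 tested plasma cell markers were lower in Ly6Glow; Jchain stood at 139 CPM in Ly6Ghi and 26.3 CPM in Ly6Glow, while Xbp1, itself on that list, was not called. Summed markers of basophils, mast cells and eosinophils were 63.51 to 68.18 CPM in Ly6Ghi and 19.59 to 21.90 CPM in Ly6Glow, with Prg3 at 0 in the Ly6Glow libraries.

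**Figure D3:**
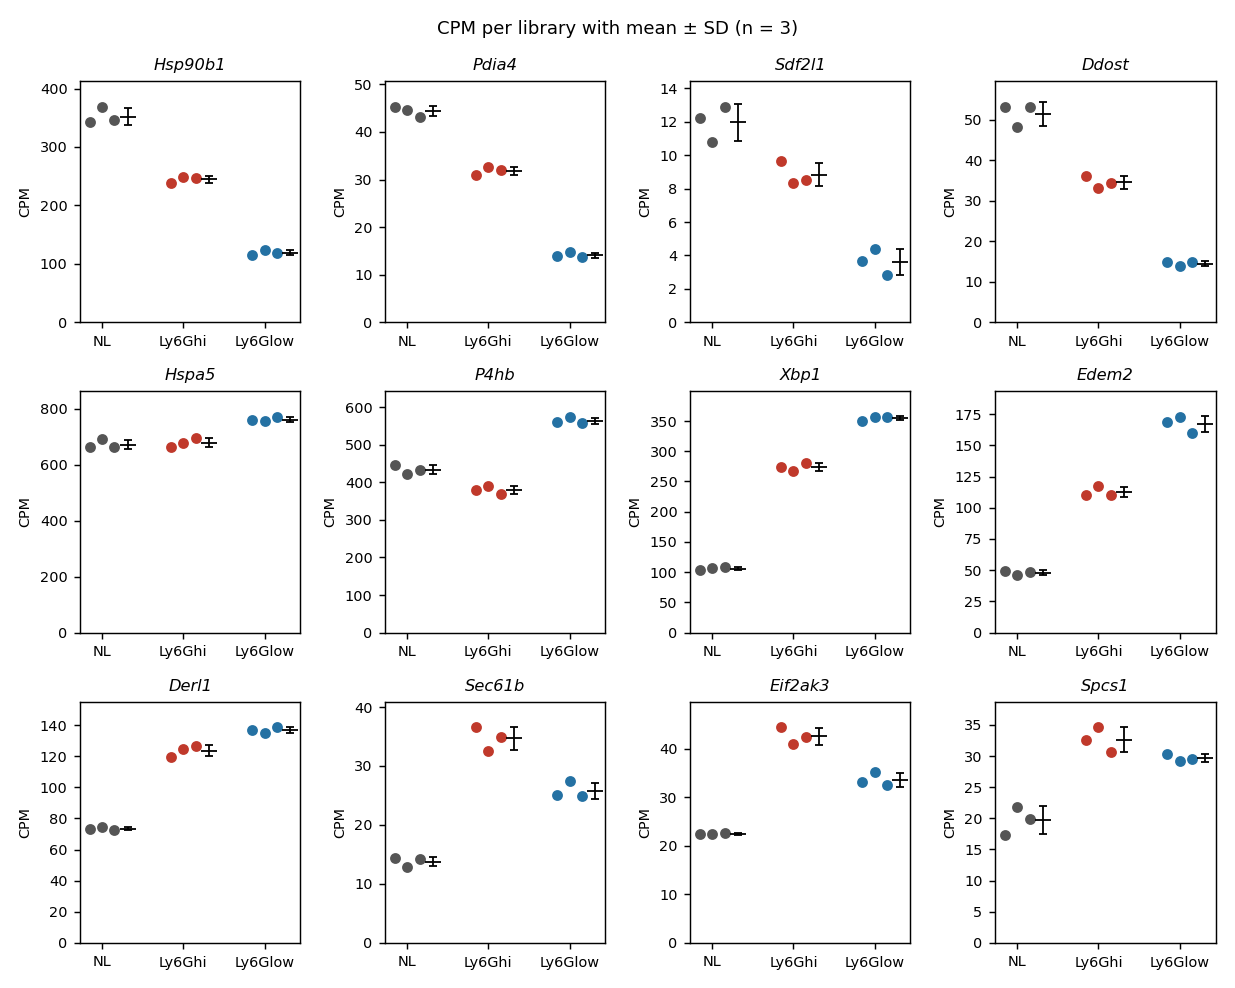
CPM (y axis, from 0) of 12 of the genes in each library of the 3 groups (colored points), with the mean ± SD of the group (black, n = 3). The upper row lies highest in NL and lowest in Ly6Glow, while Xbp1, Edem2 and Derl1 lie in the reverse order and Hspa5 stays between 661 and 770 CPM; with total counts Derl1 is highest in Ly6Ghi and Hspa5 lies in the order of the upper row.

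The comparison of Ly6Ghi with NL, both sorted as Ly6Ghigh, gave 9 genes called higher and 4 lower, 31.0% of the 42 against 62.9% of all genes tested (26.3% higher and 36.6% lower). The adjusted p alone was passed by 35 of 42 (84.6% of all genes), and 36 of 42 had no overlap (85.2%). The median log2 fold change was 0.17, against -0.09 for all genes tested. With total counts the median of all genes moved to -0.55 and that of the 42 to -0.30, and the split turned to 3 higher and 13 lower (12.3% and 48.5% of all genes). It was also 3 and 13 with limma on log2(FPKM + 1), where all genes had 10.1% and 36.4%, and 6 and 10 with upper-quartile scaling, where they had 19.6% and 40.8%.

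Of the 9 genes called higher in Ly6Ghi than in NL, 5 were among the 11 sensor and ERAD genes, of which 0 were lower, 3 were entry genes and 1 was a subunit of the oligosaccharyltransferase. Xbp1, given above, was 2.59-fold higher (log2 fold change 1.37 ± 0.035 SE, adjusted p = 1.75e-19). Edem2 was 2.35-fold higher (log2 fold change 1.23 ± 0.045 SE, adjusted p = 1.34e-16). Its relative Edem1 was at 157, 160.0 and 154 CPM in NL, 299, 295 and 304 CPM in Ly6Ghi and 314, 312 and 324 CPM in Ly6Glow. NL lay well below both tumor groups, with log2 fold change 0.93 ± 0.033 SE, adjusted p = 7.87e-17. Derl1, a channel protein of ERAD, was at 73.2, 74.3 and 72.7 CPM in NL, 119, 124 and 126 CPM in Ly6Ghi and 137, 135 and 139 CPM in Ly6Glow, in the same order (log2 fold change 0.75 ± 0.038 SE, adjusted p = 5.21e-14). Eif2ak3 was at 22.3, 22.3 and 22.5 CPM in NL, 44.4, 40.9 and 42.4 CPM in Ly6Ghi and 33.1, 35.1 and 32.5 CPM in Ly6Glow, highest in Ly6Ghi and lowest in NL (log2 fold change 0.93 ± 0.056 SE, adjusted p = 8.72e-13). With total counts only Xbp1 and Edem2 of these 5 were still called, and the median of the 7 ERAD genes passed from 0.45 to -0.02.

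Sec61b, the small beta subunit of the channel, was at 14.4, 12.9 and 14.2 CPM in NL, 36.5, 32.6 and 34.97 CPM in Ly6Ghi and 25.02, 27.4 and 24.9 CPM in Ly6Glow, 2.51-fold higher in Ly6Ghi than in NL (log2 fold change 1.33 ± 0.068 SE, adjusted p = 4.63e-14). This call was kept with total counts (0.865). Sec61g, the gamma subunit, was at 9.75, 9.81 and 9.55 CPM in NL, 16.3, 16.2 and 19.3 CPM in Ly6Ghi and 12.3, 13.6 and 11.6 CPM in Ly6Glow, with log2 fold change 0.83 ± 0.085 SE, adjusted p = 8.61e-09. Spcs1 of the signal peptidase was at 17.4, 21.8 and 20.0 CPM in NL, 32.6, 34.6 and 30.6 CPM in Ly6Ghi and 30.4, 29.2 and 29.6 CPM in Ly6Glow, with log2 fold change 0.73 ± 0.072 SE, adjusted p = 5.01e-09, and Ostc, the oligosaccharyltransferase subunit, had log2 fold change 0.64 ± 0.078 SE, adjusted p = 1.18e-07. In each of these 4 genes Ly6Ghi was highest and NL lowest, and the last 3 were not called with total counts.

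The genes lower in Ly6Ghi than in NL were all folding genes. Calr was at 391, 381 and 393 CPM in NL, 246, 235 and 229.8 CPM in Ly6Ghi and 167, 172 and 160.2 CPM in Ly6Glow, a 1.64-fold difference (log2 fold change -0.71 ± 0.035 SE, adjusted p = 2.85e-14). The others were Canx (log2 fold change -0.73 ± 0.043 SE, adjusted p = 4.95e-13), Pdia6 (log2 fold change -0.64 ± 0.045 SE, adjusted p = 1.2e-11) and Hyou1 (log2 fold change -0.60 ± 0.044 SE, adjusted p = 3.56e-11), the last of which was not called with DESeq2 size factors (-0.57) or without Ly6Ghi 1 (-0.578).

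Ly6Glow differed from NL in 23 of the 42 genes, 9 higher and 14 lower, which is 54.8% against 69.5% of all genes tested (28.7% higher and 40.8% lower). The adjusted p alone was passed by 40 (86.8% of all genes), and 40 had no overlap (86.8%). The medians were 0.15 for the 42 genes and -0.16 for all genes, or -0.55 and -0.86 with total counts, where the split was 2 higher and 20 lower (9.43% and 56.7% of all genes). Limma on log2(FPKM + 1) gave 2 and 19, against 7.97% and 45.6% of all genes, and upper-quartile scaling 6 and 16, against 22.6% and 44.6%. The 14 genes on the lower side were 8 chaperones, 3 isomerases and 3 oligosaccharyltransferase subunits. All 14 were called under total counts, upper-quartile and FPKM scaling too. These scalings moved the median of all genes further down, to -0.857, -0.346 and, with log2(FPKM + 1), -0.4893. With DESeq2 size factors and with DESeq2 that median moved up, to -0.066 and -0.067, and Creld2 (-0.571) was lost. The filter of at least 10 counts in every library also moved it up, to -0.059. The calls lost there were Dnajb9, Eif2ak3 and Spcs1, all on the higher side. Relative to the median of all genes, Creld2 (-0.505) and Pdia3 (-0.539) were lost. The largest were Ddost (log2 fold change -1.83 ± 0.068 SE, adjusted p = 1.19e-16), Sdf2l1 (log2 fold change -1.72 ± 0.13 SE, adjusted p = 6.98e-11), Pdia4 (log2 fold change -1.65 ± 0.063 SE, adjusted p = 1.82e-16) and Pdia6 (log2 fold change -1.59 ± 0.051 SE, adjusted p = 9.21e-18). Hsp90b1 was 2.95-fold lower, Canx 2.81-fold, Hyou1 2.54-fold and Rpn2 2.47-fold.

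On the higher side were Edem2 (log2 fold change 1.80 ± 0.045 SE, adjusted p = 1.17e-19), Xbp1 (log2 fold change 1.74 ± 0.035 SE, adjusted p = 2.94e-21), Edem1, Sec61b, Derl1, Ern1, Dnajb9, Spcs1 and Eif2ak3. Edem2 and Xbp1 were the ones also called with total counts, and Dnajb9, Spcs1 and Eif2ak3 then had log2 fold changes from -0.12 to -0.10. These 3 were also lost by leaving out a library: Dnajb9 without Ly6Glow 3 (0.558) or NL 1 (0.579), Spcs1 without Ly6Glow 1 (0.576) or NL 1 (0.504), and Eif2ak3 without Ly6Ghi 2 (0.58), Ly6Glow 2 (0.549) or NL 1 (0.578). Of the lower genes Creld2 was also lost without Ly6Glow 3 (-0.554). Both comparisons with NL share its libraries, so their agreement is not independent. Beside these results, all 10 neutrophil markers were called higher in each tumor group than in NL, all 10 epithelial markers were called lower in Ly6Ghi and 9 of 10 in Ly6Glow, with Bpifa1 at 0 in Ly6Ghi, and all 10 endothelial and fibroblast markers were lower in both. Monocyte and macrophage markers summed to 1634 to 1709 CPM in NL, 917.1 to 927.8 in Ly6Ghi and 828.5 to 855.9 in Ly6Glow, and alveolar macrophage markers to 2445 to 2487 CPM in NL. Of the 12 immature granule genes 11 were called higher in Ly6Ghi than in NL, and 10 were called higher and 1 lower in Ly6Glow, from sums of 6343 to 6630 CPM in NL. Of 9 tested markers of basophils, mast cells and eosinophils 9 and 6 were called higher, from sums of 5.614 to 6.264 CPM in NL. Of 8 tested plasma cell markers 5 were called higher and 2 lower in Ly6Ghi, and 1 and 6 in Ly6Glow. The part of these cells and stages in the differences from NL was not tested.

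The order of the 3 groups, read on the TMM scale from libraries that did not overlap, fell into a few kinds. Going to total counts multiplies each library by its TMM factor. These factors were 1.298 to 1.324 in NL, 0.9455 to 0.9504 in Ly6Ghi and 0.8029 to 0.8066 in Ly6Glow. The order NL, Ly6Ghi, Ly6Glow can therefore only widen with total counts, and its reverse can only narrow, so that keeping the former is no check of it. In 13 genes it was NL, Ly6Ghi, Ly6Glow from high to low: Hsp90b1, Calr, Canx, Dnajc3, Hyou1, Sdf2l1, Creld2, Pdia3, Pdia4, Pdia6, Ddost, Rpn1 and Rpn2. All 13 had this order with total counts, which could not undo it. In 8 it was the reverse: Xbp1, Atf6, Ern1, Sel1l, Edem1, Edem2, Derl1 and Sec62, of which Xbp1 and Edem2 kept it with total counts and Atf6 and Sel1l then had the opposite order. In 9 it was Ly6Ghi, Ly6Glow, NL, in the entry genes Sec61a1, Sec61b, Sec61g, Ssr3 and Spcs1 and in Ostc, Dnajb11, Eif2ak3 and Derl2, of which Sec61b alone kept it with total counts. The remaining 12 followed other orders or had neighboring groups that overlapped, among them Hspa5, P4hb and Manf, and in Sec63 all groups overlapped.

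Differences between genes of the same library do not depend on scaling. A pair of sets was formed for this after the values were seen, so no test was made: the 19 chaperone, isomerase and oligosaccharyltransferase genes, and the 11 sensor and ERAD genes. Taking NL as the reference, the mean log2 CPM of the first minus that of the second was -0.88, -0.90 and -0.88 in the Ly6Ghi libraries and -1.59, -1.63 and -1.64 in the Ly6Glow libraries, while the NL libraries lay within 0.004 of their mean. Pairs of genes were also picked after their values were seen, so that the size of their shifts is in part the choice. The shift from NL was -0.54 ± 0.020 (SD, n = 3) in Ly6Ghi and -1.74 ± 0.064 in Ly6Glow for Hsp90b1 over Hspa5, and -0.28 ± 0.042 and -2.03 ± 0.034 for Pdia4 over P4hb. For Ddost over Ostc, subunits of the same enzyme, it was -1.22 ± 0.043 and -2.14 ± 0.10. Xbp1 over Hspa5 shifted upward, by 1.36 ± 0.036 and 1.56 ± 0.016, as did Sec61b over Sec61a1, by 0.97 ± 0.10 and 0.77 ± 0.073.

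**Figure D4:**
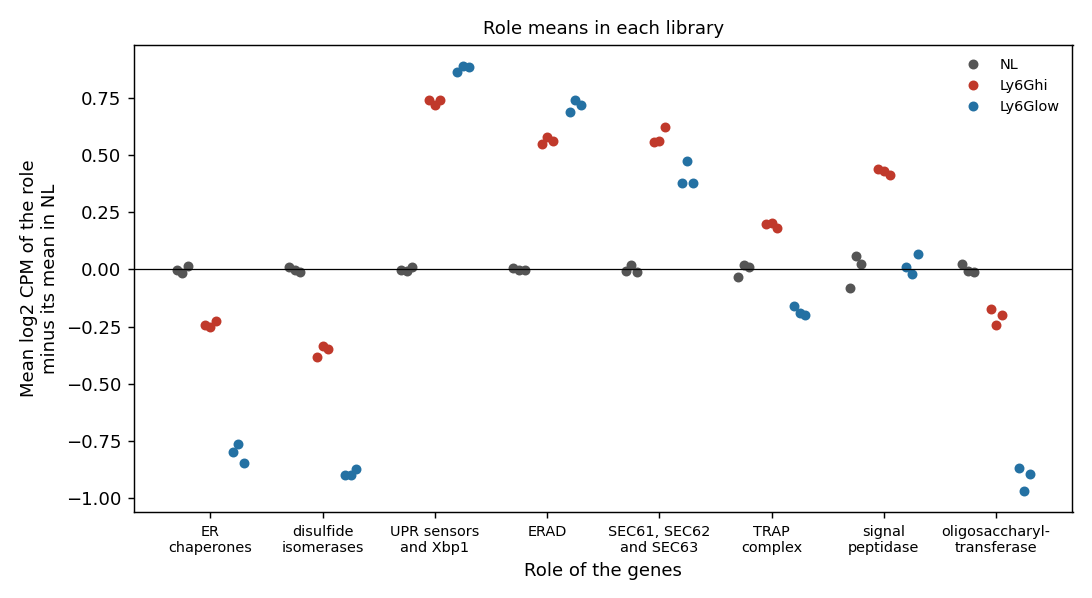
Mean log2 CPM of the genes of each role (x axis) in each library, minus the role's mean over the NL libraries (y axis). Chaperones, isomerases and oligosaccharyltransferase lie lowest in Ly6Glow, from -0.76 to -0.97 across its libraries, sensors and ERAD lie highest there, from 0.69 to 0.89 (with total counts they lie highest in Ly6Ghi), and the signal peptidase in Ly6Glow lies within 0.07 of its NL mean on this scale.

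Levels can be compared between genes per length, in FPKM (fragments per length of transcript and library size), as deposited and with no TMM scaling. Hspa5 was the highest of the 42 genes in every group, at 350 ± 11.5 FPKM in NL, 257 ± 6.64 in Ly6Ghi and 244 ± 2.99 in Ly6Glow (SD, n = 3). P4hb held the third place in NL (202 ± 3.84 FPKM) and the second in Ly6Ghi (128 ± 3.66) and Ly6Glow (161 ± 1.97). Xbp1 was at 63.2 ± 1.76 FPKM in NL, rank 9, and at 119 ± 2.71 and 130.1 ± 1.00 FPKM in Ly6Ghi and Ly6Glow, ranks 4 and 3. Hsp90b1 moved the other way, from rank 4 in NL (170.0 ± 8.67 FPKM) to rank 12 in Ly6Glow (35.4 ± 1.35), and Ddost from rank 19 (32.7 ± 1.53) to rank 40 (5.68 ± 0.23). Edem2 went from rank 21 in NL (31.5 ± 1.61 FPKM) to rank 5 in Ly6Glow (67.6 ± 2.21). In total the 42 genes took 0.566% to 0.587% of all counts in NL, 0.425% to 0.433% in Ly6Ghi and 0.351% to 0.355% in Ly6Glow. On the TMM scale their sums were close, at 4359 to 4435 CPM in NL, 4499 to 4560 CPM in Ly6Ghi and 4356 to 4408 CPM in Ly6Glow.

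Read against the promoter windows shown above, the 8 genes with an ERSE were called lower in 3 cases and higher in 0 in Ly6Glow over Ly6Ghi, and the 26 genes with an entry but no ERSE in 5 and 0, where 15.9% of all genes were lower and 9.29% higher. Against NL the counts were 0 higher and 3 lower with an ERSE and 7 and 0 without for Ly6Ghi, and 0 and 6 with and 8 and 6 without for Ly6Glow; of all genes 26.3% and 28.7% were higher and 36.6% and 40.8% lower in Ly6Ghi and Ly6Glow. These counts moved with scaling. With total counts, genes lower with and without an ERSE numbered 6 and 10 in Ly6Glow over Ly6Ghi. They numbered 6 and 6 in Ly6Ghi over NL and 6 and 10 in Ly6Glow over NL. Genes higher numbered 0 and 0, 0 and 3, and 0 and 2. Of all genes, 26.4%, 48.5% and 56.7% were then lower and 4.04%, 12.3% and 9.43% higher, in the same order. The 6 ERSE genes lower in Ly6Glow than in NL were Hsp90b1, Calr, Canx, Dnajc3, Creld2 and Pdia6. Hspa5 and Syvn1, the ubiquitin ligase of ERAD, carry the same element and were not called in any comparison. Left out of the counts for lack of an entry were Hyou1, Manf, Atf6, Derl1, Sec61a1, Ssr2, Spcs3 and Ostc. Of these, Hyou1 and Manf were called lower in Ly6Glow over Ly6Ghi, and Derl1 and Ostc higher in Ly6Ghi over NL. The counts by ERSE are a description and no test was made of them.

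A wider list of ER and secretory genes outside the 42 was read for the same comparisons; 146 of its 148 genes could be tested. In Ly6Glow over Ly6Ghi 6 were called higher and 22 lower (19.2%), against 25.2% of all genes tested (9.29% higher and 15.9% lower). The median log2 fold change was -0.10, against -0.04 for all genes. With total counts 1 was higher and 39 lower, where 4.04% and 26.4% of all genes were. Folding enzymes and the lectin cycle held 10 of the lower calls among 33 genes, led by the thioredoxin-like isomerase Txndc5 (11.3 ± 0.94 CPM in Ly6Glow, 26.9 ± 0.75 in Ly6Ghi, log2 fold change -1.25 ± 0.081 SE, adjusted p = 1.34e-11) and Mlec, an ER lectin (-0.9994 ± 0.043, adjusted p = 1.78e-14). The single higher call among them was Qsox1, a sulfhydryl oxidase (0.72 ± 0.038, adjusted p = 4.99e-13). Among 41 genes of ER-Golgi transport 2 were higher and 4 lower, among them Preb, which recruits the COPII coat (0.83 ± 0.034, adjusted p = 7.91e-15), Tmed3 (-1.03 ± 0.085, adjusted p = 9.17e-10) and the cargo receptor Lman1 (-0.94 ± 0.088, adjusted p = 5.75e-09). Other ERAD genes had 2 higher and 2 lower calls of 24, with Ngly1, which strips N-glycans, at 0.71 ± 0.051. Targeting, translocation and glycosylation genes had 1 and 5 of 33, with Srpr, the receptor of the signal recognition particle, at 0.64 ± 0.035. UPR signalling genes had 0 and 1 of 15, Creb3l2 at -0.98 ± 0.099.

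Against NL the wider list had 37 higher and 23 lower calls in Ly6Ghi, 41.1% against 62.9% of all genes tested (26.3% higher and 36.6% lower). In Ly6Glow it had 49 and 38, 59.6% against 69.5% (28.7% higher and 40.8% lower). Its medians were 0.30 and 0.24, against -0.09 and -0.16 for all genes. Total counts turned the calls to 10 and 46 in Ly6Ghi, where 12.3% and 48.5% of all genes were called. In Ly6Glow they became 7 and 69, where 9.43% and 56.7% were. In Ly6Ghi over NL the ERAD genes had 9 higher and 1 lower call of 24, and ER-Golgi transport 13 and 5 of 41, while folding enzymes had 5 and 9 of 33. The disulfide oxidase Ero1l was at 228 ± 0.99 CPM in Ly6Ghi and 86.7 ± 4.96 in NL (log2 fold change 1.39 ± 0.043 SE, adjusted p = 4.99e-18). Sec11c, a catalytic subunit of the signal peptidase, had 1.60 ± 0.059 (adjusted p = 1.55e-16) and Ppp1r15b, which directs the dephosphorylation of eIF2 alpha, 1.23 ± 0.033 (adjusted p = 4.47e-19). On the lower side were Tusc3, an oligosaccharyltransferase subunit (-1.95 ± 0.093, adjusted p = 1.40e-14), and Sil1, a nucleotide exchange factor of Hspa5 (-1.45 ± 0.10, adjusted p = 1.64e-11). In Ly6Glow over NL, UPR signalling had 4 higher and 3 lower calls of 15. Among the higher calls on the TMM scale was Ppp1r15b (1.473 ± 0.033, adjusted p = 1.83e-20). Another was Ddit3 (CHOP), a transcription factor downstream of PERK (1.01 ± 0.054, adjusted p = 7.83e-14). Creb3l2 was among the lower calls (-2.385 ± 0.0823, adjusted p = 3.26e-17). Calls of single genes of the wider list were not followed to total counts.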

How the data were processed

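RNA was measured in 9 libraries of sorted lung neutrophils, 3 in each of the groups Ly6Ghi, Ly6Glow and NL. The authors deposited a table of estimated counts per gene, of which 37.9% of values were whole, and a table of FPKM values of the same genes, normalized by them to transcript length and library size. Their notes name the mouse build mm10; the aligner and the counter are not given in the sources used here. Of 22064 listed genes 3739 were blank and 18325 had values.

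Estimated counts were rounded and filtered with filterByExpr (14108 genes left), scaled with TMM and fitted over all 9 libraries with edgeR 4.0.16 (R 4.3.3, glmQLFit and glmQLFTest), with Benjamini-Hochberg adjustment over all genes tested. Calls needed an adjusted p no higher than 0.05 with a log2 fold change beyond 0.58 in either direction, the latter taken from the study's methods, which used DESeq2. The SE is the absolute log2 fold change divided by the square root of F. The script was tested on simulated data. Alternatives were DESeq2 1.42.0, other scalings and filters, limma 3.58.1 on log2(FPKM + 1) and log2(FPKM + 0.1), a replicate block and leaving out each library. Counting intervals are not given, since the spread between libraries is. Promoters were RefSeq windows of GRCm38.p6.

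The 42 genes and the other gene lists were chosen with earlier results of these data known. Full values were given for up to 10 called genes with the largest change in each comparison; Hspa5 and P4hb were added after their values were seen. Genes of the wider list were named from the 2 called higher and the 2 called lower with the largest change in each list, among genes of at least 10 CPM in the higher group.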

Additional observations from a re-analysis of the deposited data

How the results depend on the processing

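Of the 10 genes lower in Ly6Glow than in Ly6Ghi 9 were called in each of the 20 refits or rescalings tried, Pdia3 being the exception. Counts of calls in all 3 comparisons depended on the scaling. The counts below give genes called higher and lower, first of the 42 and then of the wider list, and the median log2 fold change of the 42.

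With total counts alone, Ly6Glow over Ly6Ghi had 20 of the 42 lower (median -0.5744) and 1 and 39 of the wider list; Ly6Ghi over NL had 3 and 13 (median -0.2969), with 10 and 46; Ly6Glow over NL had 2 higher (median -0.5466), with 7 and 69. Signs turned for 8 of the 42 genes in the first comparison and for 17 in each of the others; of values given in the report these were Hspa5 (-0.0695) and Atf6 (-0.098) in the first and Dnajb9 (-0.0991), Eif2ak3 (-0.117) and Spcs1 (-0.11) in the last comparison. With limma on log2(FPKM + 1) the values were 19 lower (-0.5423) with 0 of the wider list higher, 3 and 13 (-0.2624) with 10 and 40, and 2 higher (-0.5292) with 7 and 67, with the same signs turned (-0.0726, -0.0952, -0.0975, -0.11 and -0.0992). On log2(FPKM + 0.1) they were 21 lower (-0.5763) with 0 and 38, 3 and 13 (-0.2784) with 10 and 43, and 2 higher (-0.5449) with 7 and 68 (signs turned: -0.0728, -0.103, -0.0995, -0.124 and -0.102). Each of these 3 settings turned the sign of 42 of 126 pairs of gene and comparison; they leave out the TMM factors, which ran from 0.8029 to 1.324.

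Upper-quartile scaling gave 10 lower in Ly6Ghi over NL (median -0.02427), and in Ly6Glow over NL a median of -0.03542 and 27 of the wider list higher. At least 10 counts in every library gave 10 lower with -0.005588, then -0.02849 with 29, and -0.3475 in Ly6Glow over Ly6Ghi, where no filter on low counts gave -0.3572. DESeq2 size factors and DESeq2 in place of edgeR each called 2 of the 42 (P4hb and Edem2) higher in Ly6Glow over Ly6Ghi, with medians of -0.2722 and -0.2723 there and 0.2447 for both in Ly6Glow over NL. Relative to the median of all genes tested, chosen after seeing the data, 2 were higher in Ly6Glow over Ly6Ghi (-0.2971), 2 lower in Ly6Ghi over NL (0.2562), and the median was 0.3111 in Ly6Glow over NL.

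Without a fold-change limit, Ly6Glow over Ly6Ghi had 11 and 25 of the 42 and 35 and 57 of the wider list, Ly6Ghi over NL 21 and 14 with 86 and 41, and Ly6Glow over NL 22 higher with 77. Of all 14108 genes, 3686 were then higher and 4182 lower in Ly6Glow over Ly6Ghi. In either direction 55.8%, 84.6% and 86.8% of all genes passed in the 3 comparisons. At a limit of 1 the members and the wider list had 4 lower with 0 and 8, 3 and 0 with 11 and 14, and 3 and 9 with 17 higher. Of all genes, 342 were higher and 963 lower at that limit in Ly6Glow over Ly6Ghi. Leaving out each library gave 0 to 2 of the 42 higher in Ly6Glow over Ly6Ghi (2 without Ly6Ghi 2) and medians from -0.37 to -0.3208 there, from 0.1284 to 0.2118 in Ly6Ghi over NL and from 0.1479 to 0.1837 in Ly6Glow over NL. The cause of these changes was not tested.

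Same-numbered libraries of different groups deviated from their group means with correlations from -0.0683 to 0.0766, against -0.0998 to 0.139 for different numbers. Since the spread between libraries may be technical, these values cannot show whether libraries of the same number came from the same mice. With the replicate block 0 and 10, 9 and 4, and 9 and 14 of the 42 genes were called, and none of 126 calls changed. Libraries held 15267177 to 17841807 counts, and the effect of depth was not tested.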
